A study of Mus musculus with 4 samples.

Results

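Neuronal RNA-binding proteins were examined in the brain of mouse embryos, taken whole at embryonic day 14.5, that lacked Sox4 and Sox11 in the cells reached by a Cre driver. The set holds 10 of the 18193 genes named on the array, namely Elavl2, Elavl3, Elavl4, Celf3, Celf4, Celf5, Nova1, Nova2, Rbfox3 and Ptbp2. Every probe set whose symbol in the array annotation is exactly 1 of these names was taken, which gave 25 of 45037 probe sets. A probe set is a group of short probes that together read 1 stretch of a transcript. Of the 25, 23 passed a filter on low signal and were tested.

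The 2 control arrays came from embryos of genotype Sox4 flox/flox; Sox11 flox/flox, and the 2 knockout arrays from embryos with both floxed genes and Brn4::Cre. All 4 share a mixed background of 129SvJ and C57Bl/6J. Brn4 is another name of Pou3f4, so both genes are deleted only where that driver has been active, while RNA was taken from the whole brain. Floxed alleles are present in both groups, and no Cre-only control is among the 4 samples. Arrays of a group are labelled as biological replicates, with nothing on whether 1 embryo or a pool gave the RNA. P-values therefore measure the spread between these arrays only.

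Of the targeted genes, Sox11 fell at 6 of 6 probe sets. Of 6 tested Sox4 probe sets, 4 fell, 1 rose and 1 did not pass. Which of them lie in the deleted part is unknown here. The Sox4 probe set that rose read 5342 and 4255 in controls and 17454 and 16453 in knockouts. Its log2 change was 1.83 (limma adjusted p = 6.84e-06), and the cause of this rise was not tested. The Sox4 probe set that did not pass, the brightest, had a change of 0.09 (limma adjusted p = 0.242). Median signals were 262.6 to 287.6 on the 4 arrays. Across all probe sets log2 signals correlated with r = 0.974 within either group and 0.962 to 0.966 between arrays of different groups, a description only, since probe sets are not independent. With 2 arrays a group, an exact two-sided permutation test of a single value cannot give a p below 0.333, so the tests here borrow the spread of all probe sets through limma.

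The proteins of this set bind RNA in neurons and shape which transcripts are spliced, kept or translated. The ELAV-like (Hu) proteins encoded by Elavl2, Elavl3 and Elavl4 bind U-rich and AU-rich stretches and stabilise many messages of young neurons. Members of the CELF family bind GU-rich RNA, NOVA proteins bind YCAY clusters, and RBFOX proteins bind GCAUG. PTBP2 takes over from its paralog PTBP1 when progenitors become neurons and holds back exons of the mature neuron. An array that reads transcript ends gives the level of each message and not the choice of exons.

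The level of most of these messages was lower in the knockout. Read at the brightest tested probe set, 7 of 10 genes fell, where 11.0% of all 12489 genes did, and 0 rose, where 16.3% of all genes did. Shares of all genes, and of all probe sets below, are not matched for signal. The 10 genes read far above the filter, and the fit gives dimmer probe sets wider errors. The genes that fell were Nova1, Elavl3, Celf3, Ptbp2, Celf5, Elavl4 and Elavl2, by 1.19-fold to 1.76-fold. Those that did not pass were Celf4, Nova2 and Rbfox3. The median log2 change of the 10 genes was -0.35, beside 0.06 for all genes. The 3 ELAV-like genes, the Celf pair and the others are not replicates of each other, and these counts describe the 10 genes only.

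By probe set, 12 of 23 fell, where 11.6% of all 27022 tested probe sets did, and 0 rose by limma at an adjusted p under 0.05, where 11.7% did. At an unadjusted p under 0.05, 13 were lower and 1 was higher, where 18.1% and 18.2% of all tested probe sets were. Both knockout arrays lay below both control arrays at 17 of the 23, where 31.6% of all tested probe sets had this order, and above both at 2, where 31.3% did. The median log2 change of the 23 was -0.25, beside -0.01 for all tested probe sets. Fold changes are on the scale log2(signal + 16), knockout minus control, and adjusted p-values come from limma with Benjamini-Hochberg adjustment over all tested probe sets. When the variance model had no trend with signal, 5 of the 23 fell, at Elavl3, Nova1 and Ptbp2, and 2 genes fell at the brightest probe set. With median centring 9 of the 12 calls were kept, both of Elavl2 and that of Elavl4 being lost, and without the signal filter 9 were kept, both of Elavl2 and 1452245_at of Nova1 being lost. In whole-brain RNA, fewer cells of a type and less RNA per cell cannot be told apart.

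**Figure D1:**
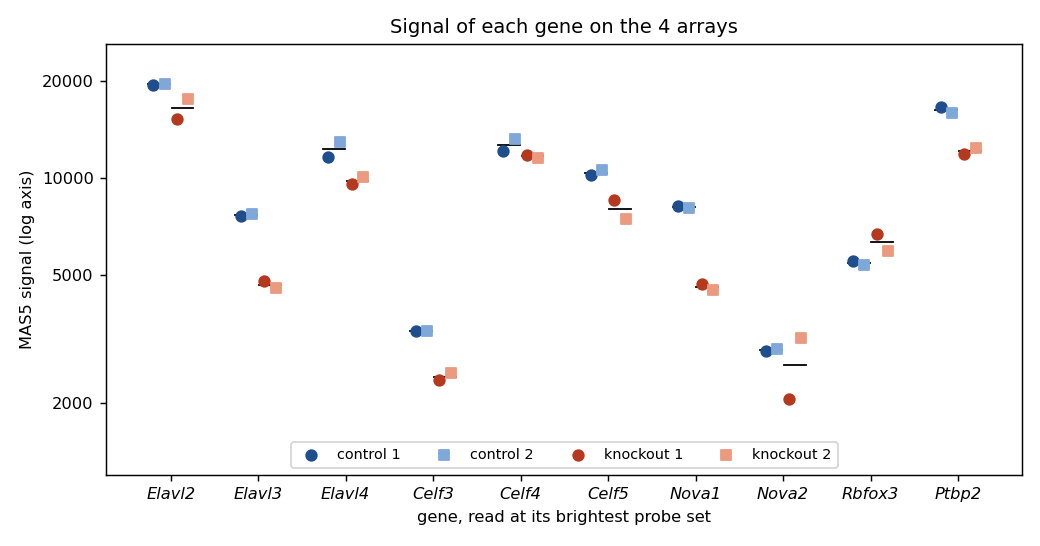
MAS5 signal (log axis) of the 10 genes at the brightest tested probe set on each of the 4 arrays, with bars at the mean of each group of 2. Both knockout arrays lie below both controls at 8 genes and above both at Rbfox3, and the knockout arrays of Nova2 lie on either side of the controls. Over all 27022 tested probe sets, both knockouts were lower at 31.6% and higher at 31.3%. Heights of different genes are not comparable, since each probe set has its own response.

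The stretches before the start sites are shown for the 3 genes that hold the largest falls, Ptbp2, Nova1 and Elavl3, because SOX proteins act at such stretches as well as at distant sites. Rbfox3, whose changes were above 0, is set beside them. Each has 1 start in the RefSeq table (build GRCm38.p6), and the 250 bases before it are given 5′ to 3′ on the strand of the gene. The SOX core motifs ACAAAG and ACAATG were searched on both strands, and matches are in capitals, written as CTTTGT or CATTGT where they lie on the other strand.
Ptbp2, chr3:119783389-119783638, minus strand: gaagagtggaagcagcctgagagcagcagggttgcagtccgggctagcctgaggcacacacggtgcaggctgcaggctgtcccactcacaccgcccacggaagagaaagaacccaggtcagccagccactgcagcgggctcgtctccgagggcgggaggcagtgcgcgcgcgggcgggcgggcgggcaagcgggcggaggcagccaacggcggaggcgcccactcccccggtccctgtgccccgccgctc
Nova1, chr12:46818768-46819017, minus strand: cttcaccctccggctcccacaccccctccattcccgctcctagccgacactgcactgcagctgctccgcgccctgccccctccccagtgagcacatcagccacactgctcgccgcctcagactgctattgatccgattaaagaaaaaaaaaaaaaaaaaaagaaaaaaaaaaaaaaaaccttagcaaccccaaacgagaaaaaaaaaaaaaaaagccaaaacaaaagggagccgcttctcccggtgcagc
Elavl3, chr9:22052024-22052273, minus strand: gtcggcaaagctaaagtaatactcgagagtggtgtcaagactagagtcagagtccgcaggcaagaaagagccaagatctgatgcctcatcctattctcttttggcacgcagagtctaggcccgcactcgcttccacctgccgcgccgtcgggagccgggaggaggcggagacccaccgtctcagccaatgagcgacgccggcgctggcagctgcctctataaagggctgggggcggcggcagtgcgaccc
Rbfox3, chr11:118761042-118761291, minus strand: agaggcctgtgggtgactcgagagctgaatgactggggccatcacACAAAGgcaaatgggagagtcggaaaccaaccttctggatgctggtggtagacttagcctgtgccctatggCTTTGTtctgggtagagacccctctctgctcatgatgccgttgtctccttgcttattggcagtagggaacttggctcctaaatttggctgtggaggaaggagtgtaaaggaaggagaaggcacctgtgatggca
No match stood in the windows of Ptbp2, Nova1 and Elavl3, and 2 stood in that of Rbfox3. Of all 32851 windows of this length, 25.2% held a match. The GC content was 72.4% at Ptbp2, 61.6% at Elavl3, 50% at Nova1 and 52.8% at Rbfox3, beside a median of 52.4% over all windows. The windows of Ptbp2, Elavl3 and Nova1 held 23, 20 and 11 CpG pairs, and that of Rbfox3 held 3. Windows of other genes that fell held 3 to 14 at Elavl4 and 1 to 11 at Celf3. Those of Celf5 held 7 to 17 and those of Elavl2 10 to 21. Their GC content ran from 44% at Elavl4 to 73.2% at Elavl2. A link of GC or CpG content with the changes was not tested.

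Of the 10 genes, 9 had windows in this table, 27 in all because several genes have alternative starts, and 6 windows of 5 genes held a match. Across all genes 28.2% had a match in any window. Those shares per gene are not alike, since the 9 genes had more windows each than all genes did (32851 windows over 27025 genes). Counted by window, 6 of 27 held a match here, beside 25.2% of all windows. The matches of the other genes that fell are shown with 12 bases on either side.
Elavl2, chr4:91400093-91400122, minus strand: atcacagtcattACAAAGgggccgctctgt
Elavl4, chr4:110352041-110352070, minus strand: gcagtcttgaaaCATTGTtcctttagattt
Celf3, chr3:94482646-94482675, plus strand: ccaggtgagctaACAAAGctgagcttccca
Celf3, chr3:94484314-94484343, plus strand: ggcatctgctccCTTTGTgctgcccgagtg
Celf5, chr10:81474438-81474467, minus strand: ttccaggtctttCTTTGTtgagatcttcgg
In each of these genes other listed starts had no match. A match is a run of letters and not a measured binding site, and its absence says only that these letters are not in the window.

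Elavl3, which encodes the pan-neuronal protein HuC, fell at 3 of 3 probe sets. At the brightest, 1435871_at, the controls read 7606 and 7728 and the knockouts 4779 and 4549. The groups were far apart relative to the gap within each. The mean was 7667 ± 86.3 in controls and 4664 ± 163 in knockouts (SD, n = 2 each). The log2 change was -0.72 ± 0.08 (SE from limma, adjusted p = 0.000246). The dimmer probe sets of Elavl3 had changes of -0.84 ± 0.09 at 1452524_a_at and -0.89 ± 0.09 at 1455484_at, both with an adjusted p of 0.000197 in limma. Each of the 3 calls held with any 1 array left out and under every other setting tried.

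Elavl4, which encodes HuD, a regulator of neurite growth, fell at 1 of 3 probe sets. Its brightest probe set, 1452894_at, read 11604 and 12921 in controls and 9542 and 10052 in knockouts. Both knockout arrays were lower, while the controls differed from each other by more than the knockouts did. The log2 change was -0.32 ± 0.08 (limma adjusted p = 0.0142), and it did not pass without control 2 (-0.24, adjusted p = 0.128) or knockout 1 (-0.28, adjusted p = 0.0784). At 1450258_a_at the values were 5633 and 5450 against 4647 and 4669, and the change of -0.25 lay just outside the threshold (adjusted p = 0.0503). The third, 1428741_at, had a change of -0.16 with a 95% interval of -0.35 to 0.03.

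Elavl2, which encodes HuB, was read by 5 probe sets, the most of any gene here. At the brightest, 1421882_a_at, signals were 19413 and 19597 in controls and 15242 and 17608 in knockouts. The knockout arrays were both lower but stood apart from each other. The log2 change was -0.25 ± 0.08 (limma adjusted p = 0.0366), and at 1421881_a_at it was -0.32 ± 0.08 (adjusted p = 0.0204). The first call was lost without control 1 (-0.26, adjusted p = 0.101), control 2 (-0.24, adjusted p = 0.111) or knockout 1 (-0.15, adjusted p = 0.138). The second was lost without control 1 (-0.26, adjusted p = 0.155) or knockout 1 (-0.27, adjusted p = 0.10). Neither 1421883_at (-0.14, 95% interval -0.28 to 0.01) nor 1454454_at (-0.05, interval -0.33 to 0.22) passed. The dimmest, 1433052_at, was below the filter, with signals of 217.5 and 165.1 in controls and 64.2 and 121.2 in knockouts.

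Nova1, a splicing regulator first known as a neuronal autoantigen, fell at both of its probe sets. The bright one, 1426938_at, read 8180 and 8041 in controls and 4691 and 4502 in knockouts. Arrays of 1 group nearly coincided and the groups lay well apart. The mean was 8110 ± 97.7 in controls and 4596 ± 134 in knockouts (SD, n = 2 each). The log2 change was -0.82 ± 0.08 (limma adjusted p = 0.000119). Leaving out any 1 array gave -0.85 to -0.79, and the call held each time. The dim one, 1452245_at, read 481.4 and 405.5 against 245.5 and 297.1, a change of -0.68 ± 0.20 (adjusted p = 0.0349). That call was lost without control 1 (-0.56, adjusted p = 0.149), knockout 1 (-0.55, adjusted p = 0.177) or knockout 2 (-0.81, adjusted p = 0.0745).

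Nova2, the paralog with a role in cortical migration and synaptic splicing, gave no settled value. At 1439192_at the controls read 2897 and 2936, while knockout 1 read 2064 and knockout 2 read 3180. The knockout arrays thus lay on either side of the controls. The log2 change was -0.19 ± 0.17 (95% interval -0.55 to 0.18, limma adjusted p = 0.459). It was -0.50 and passed without knockout 2 (adjusted p = 0.0333), and it was 0.12 without knockout 1. Its other probe set, 1439099_at, read 5.2 to 28.7 on the 4 arrays and was not tested.

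Ptbp2, the neuronal polypyrimidine tract protein, held the largest change of the 23 probe sets. At 1423471_at the controls read 3600 and 3591 and the knockouts 1459 and 1829. The knockout mean was 45.7% of the control mean, and the groups did not overlap. The log2 change was -1.13 ± 0.12 (limma adjusted p = 0.000199), and -1.29 to -0.97 with any 1 array left out. The brighter 1423470_at read 16627 and 15847 against 11844 and 12376, a change of -0.42 ± 0.07 (adjusted p = 0.00173). Both calls held with each array left out in turn.

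Of the Celf genes, Celf3 and Celf5 fell and Celf4 did not pass, which is no test of a difference between them. Celf3, a brain-restricted member of the family, read 3340 and 3339 in controls and 2355 and 2476 in knockouts at its only probe set, 1452851_at. The controls were nearly identical and both knockouts lower. Its change was -0.47 ± 0.10 (limma adjusted p = 0.00645). Celf5 at 1434969_at read 10192 and 10571 against 8521 and 7447, a change of -0.38 ± 0.08 (adjusted p = 0.00894). Both Celf3 and Celf5 passed with each array left out, with an adjusted p of up to 0.0454 and 0.0489.

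Celf4, a regulator of excitatory neuron messages whose loss causes seizures in mice, did not pass at any of its 3 probe sets. The brightest, 1426930_at, read 12128 and 13200 in controls and 11807 and 11544 in knockouts. Both knockouts were lower, but by less than the controls differed from each other. The change was -0.12 ± 0.07, with a 95% interval of -0.27 to 0.04. At 1452240_at it was -0.01 (interval -0.18 to 0.16) and at 1426929_at -0.02 (interval -0.23 to 0.19), and the arrays of the groups overlapped at both. The changes of -0.72 at Elavl3 and -0.82 at Nova1 lay outside these intervals, which take no account of the error of those changes. Compared directly, Celf4 did not pass against Elavl3, Nova1, Celf3 or Celf5 (limma adjusted p = 0.0764, 0.0591, 0.259 and 0.313). A p that misses the threshold does not show equal levels.

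Rbfox3 encodes the antigen NeuN, the usual stain of postmitotic neurons, and was the gene whose changes were above 0 at every tested probe set. The brightest, 1436450_at, read 5523 and 5368 in controls and 6703 and 5916 in knockouts. Both knockouts were higher, though the knockout arrays differed from each other more than the controls did. The log2 change of 0.21 ± 0.09 had a 95% interval of 0.01 to 0.40 and did not pass (limma adjusted p = 0.115). The other probe sets had changes of 0.06 at 1456149_at (interval -0.18 to 0.30) and 0.01 at 1427286_at (interval -0.32 to 0.34), and the latter turned sign without control 2 or knockout 1 (-0.02 and -0.01). The change of -0.72 at Elavl3 lay outside all 3 intervals, which take no account of the error of that change.

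**Figure D2:**
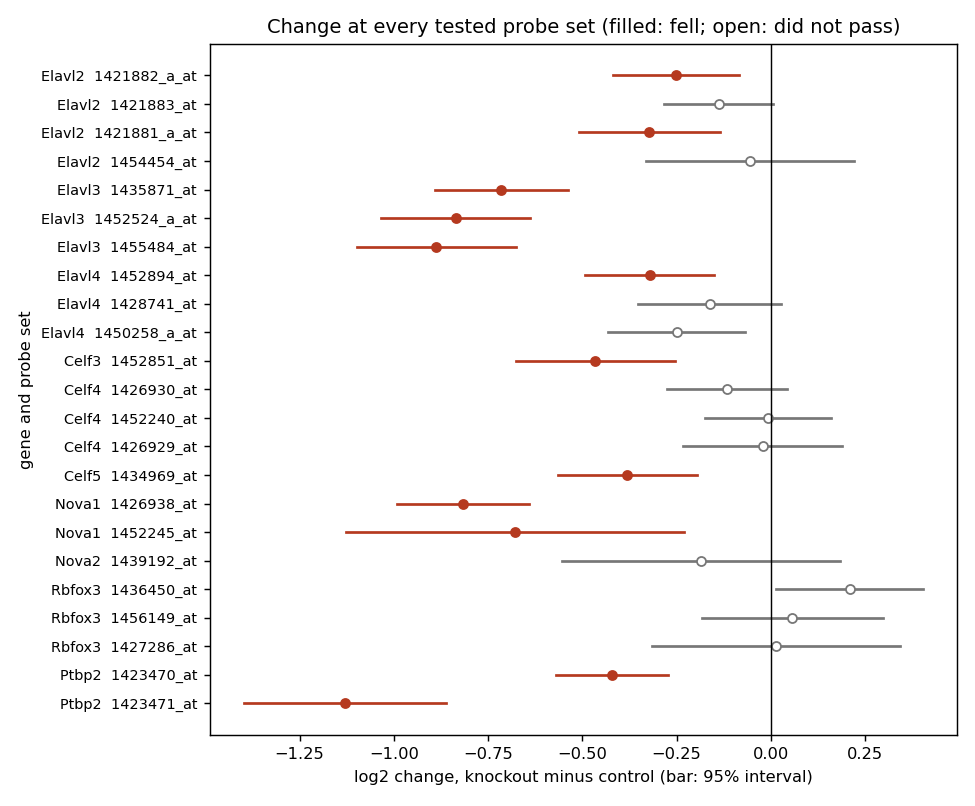
Log2 change, knockout minus control, at each of the 23 tested probe sets, with its 95% interval from limma. Filled points passed an adjusted p under 0.05, and all 12 of them lie below 0, from -1.13 at Ptbp2 to -0.25 at Elavl2, while the 3 Rbfox3 probe sets lie above 0.

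Whether the genes changed by different amounts was tested from the array-wise log2 difference of 2 probe sets, in 1 limma fit over 10250 pairs. These were 10205 pairs of a gene's brightest probe set with another of its own, of which 0.0882% passed, and the 45 pairs among the 10 genes here. Over the whole fit, 0.107% of pairs passed. The change of Nova1 minus that of Rbfox3 was -1.03 ± 0.10 (limma adjusted p = 0.0163), and that of Elavl3 minus that of Rbfox3 was -0.92 ± 0.10 (adjusted p = 0.0276). These were the 2 of 45 pairs that passed, both with Rbfox3, and 25 had an unadjusted p under 0.05, where 12.4% of all pairs did. Nearly all pairs of the fit are of probe sets of 1 gene. The shares over the fit are therefore no measure for pairs of different genes, whose rate was not computed. The 45 pairs also reuse the same 10 probe sets. Celf4 against Nova1 (0.70, 95% interval 0.49 to 0.91, adjusted p = 0.0591) and against Elavl3 (0.60, interval 0.40 to 0.80, adjusted p = 0.0764) did not pass. Elavl3 and Elavl4 differed by -0.39 (interval -0.62 to -0.16, adjusted p = 0.205), and Elavl3 and Elavl2 by 0.46 when Elavl3 was subtracted from Elavl2 (interval 0.22 to 0.71, adjusted p = 0.173). Nova1 and its paralog Nova2 differed by -0.63 (interval -1.12 to -0.15, adjusted p = 0.304), and Celf3 and Celf4 by -0.35 (interval -0.59 to -0.11, adjusted p = 0.259). This fit was added after the data were seen.

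Within each of these genes the brightest probe set was compared with the others, and the dimmer ones were not compared among themselves. Of these 13 pairs, 0 passed in limma and 1 had an unadjusted p under 0.05. That pair was Ptbp2, where the change at the brighter probe set minus that at the dimmer was 0.71 (95% interval 0.43 to 0.98, adjusted p = 0.106). The other 12 had adjusted p-values of 0.544 or more. Probe positions were not used here, so the ends or isoforms that the Ptbp2 probe sets read were not compared.

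The other genes of the same families moved in both directions. Of 8 relatives, 3 fell and 1 rose at the brightest probe set. Ptbp1, the paralog of Ptbp2 found in progenitors and non-neuronal cells, read 3455 and 2791 in controls and 4902 and 4278 in knockouts, so both knockouts were higher. Its log2 change was 0.56 ± 0.12 (limma adjusted p = 0.0078), opposite in sign to that of Ptbp2. The call was lost without knockout 1 (0.46, adjusted p = 0.0884), when 0 relatives rose, and without a variance trend (adjusted p = 0.0792). The dimmer Ptbp1 probe sets did not pass, with changes of -0.13 and -0.01.

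Rbfox2, which is expressed beyond neurons, went from 2278 and 2597 to 1018 and 1011. The knockout arrays nearly coincided, below both controls. The change was -1.25 ± 0.12 (limma adjusted p = 0.000111). The other 3 Rbfox2 probe sets did not pass, at -0.39, -0.54 and -0.10. Rbfox1, the third paralog, fell, with a change of -0.29 ± 0.08 (limma adjusted p = 0.027), a call lost with any of the 4 arrays left out. At the dimmer 1455358_at Rbfox1 also fell (-0.26, adjusted p = 0.0489), while 1438217_at (-0.29) and 1447735_x_at (-0.35) did not pass. Celf2 fell, with a change of -0.30 ± 0.06 (adjusted p = 0.00806), while it rose at a dimmer probe set, 1439777_at (0.35, adjusted p = 0.0466). Without control 2, only Rbfox2 of these relatives fell, and Celf2 had an adjusted p of 0.058. Rbfox2 was also the only relative that fell with median centring (Celf2 adjusted p = 0.0978, Rbfox1 0.168) and without a variance trend (0.126 and 0.138). Elavl1 (0.19), Celf1 (-0.13), Celf6 (0.07) and Ptbp3 (0.12) did not pass.

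Among 28 tested genes of other RNA-binding proteins with roles in neural tissue, 4 fell, 2 rose and 22 did not pass, with a median log2 change of -0.11. Stau2, which carries messages into dendrites, fell (-0.61), as did Igf2bp1 (-0.50) and Msi1 (-0.41), a translational regulator of progenitors, while Mbnl2, a splicing factor of later development, rose by 0.64. The remaining calls, named after their values were seen, were Pcbp4 (-0.26) and Fxr1 (0.38). Leaving out control 1 gave 6 falls, control 2 gave 2 and either knockout array 1, and there were 6 with quantile normalization but 0 without a variance trend. The number that rose was 3 without control 2 or knockout 1, and 1 without control 1, knockout 2, the signal filter or the variance trend. General splicing factors, such as SR proteins, hnRNPs and spliceosome subunits, had a median of -0.01. Of 29, 26 did not pass, Srsf5 (0.37) and Snrpb (0.27) rose and Tra2a fell (-0.23). Snrpb did not pass without control 1, control 2 or knockout 1 (0.24, 0.31 and 0.23), nor did Tra2a (-0.23, -0.24 and -0.18). With quantile normalization 3 splicing factors fell, and with median centring, no signal filter or no variance trend 0 did.

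Transcripts known to be bound or spliced by these proteins were also read at the level of the whole message. Of 8 tested, 2 fell, 2 rose and 4 did not pass, with a median log2 change of -0.05. Glra2, a glycine receptor subunit whose exon NOVA1 regulates, fell from 3557 and 3671 to 2093 and 2212, with no overlap between groups (-0.74 ± 0.10, limma adjusted p = 0.000573). Agrn (-0.52), whose neural exons NOVA proteins promote, fell, and Cdkn1a (0.48), a cell cycle inhibitor, and Gphn (0.30), the inhibitory synapse scaffold gephyrin, rose. Gap43, a message stabilised by HuD, had a change of -0.05 (95% interval -0.20 to 0.10), and Dlg4, whose splicing PTBP2 holds back, one of 0.05. Without control 1 or knockout 1 the number that rose was 0, and without control 2 or knockout 2 it was 1, Cdkn1a. Without a variance trend 0 rose and 1 fell.

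**Figure D3:**
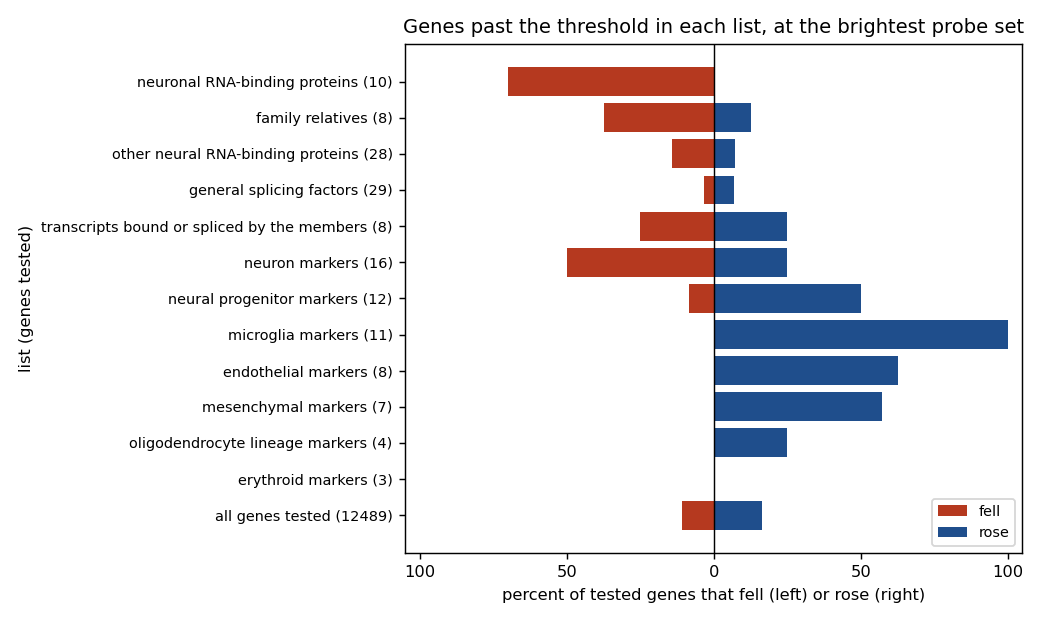
Percent of tested genes that fell (left) or rose (right) in each list, read at the brightest tested probe set, with the number of genes tested in brackets. The 10 neuronal RNA-binding proteins have falls only, 7 of 10, while all 12489 genes have 11.0% that fell and 16.3% that rose.

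Markers of cell types moved between the same arrays. The brain label was borne out by bright neuron and progenitor markers, such as Tubb3 and Fabp7. Of 16 neuron markers, 8 fell, 4 rose and 4 did not pass, with a median log2 change of -0.25, beside -0.35 for the 10 genes here read in the same way. Ina (-1.02), an intermediate filament, and Tubb3 (-0.75), a tubulin of young neurons, fell, while Eno2 (1.28), a glycolytic enzyme, and Syp (0.89), of synaptic vesicles, rose. Summed over the 16, signals were 202596 and 211607 in controls and 165976 to 175986 in knockouts. Such sums, here and below, weigh bright probe sets most. Map2 averaged 23740 in controls, beside 1565 for Eno2 and 2373 for Syp. Gap43 is on this list and on that of bound transcripts. Neuron markers thus moved both ways, and without a variance trend 4 fell and 3 rose. Of 12 progenitor markers, 6 rose, among them Mki67 (0.76), Nes (0.61) and Sox9 (0.57), and Prom1 fell (-0.77). Their sums were 83582 to 88732 in controls and 95607 to 98303 in knockouts, and 3 rose without knockout 1 or without a variance trend.

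Markers of other cell types were read in the same way. All 11 tested microglia markers rose, with sums over 12 genes of 8056 to 8798 in controls and 27692 to 29899 in knockouts, and the untested Trem2 averaged 31.2 in controls and 348 in knockouts. Of 8 endothelial markers 5 rose, Tek (0.65), Cdh5 (0.50), Kdr (0.47), Esam (0.46) and Cldn5 (0.42), with sums of 6980 to 7692 against 9631 to 10327. That count was 0 without control 1 or knockout 1 and 1 without knockout 2, and it was 2 without the signal filter and 1 without a variance trend. Of 7 mesenchymal markers 4 rose, Postn (0.76), Col1a2 (0.40), Col3a1 (0.39) and Dcn (0.39), with sums of 28259 to 29053 against 36891 to 38772, and 2 rose without knockout 2 and 1 without a variance trend. Among 4 genes of the oligodendrocyte lineage Pdgfra rose (0.36), a call lost without either knockout array, the signal filter or the variance trend, with overlapping sums of 3391 to 4110 against 3770 to 4239. None of 3 tested erythroid markers passed, with sums of 3800 to 4203 against 4244 to 4688. The part of these shifts in the changes of the RNA-binding protein genes was not tested.

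**Figure D4:**
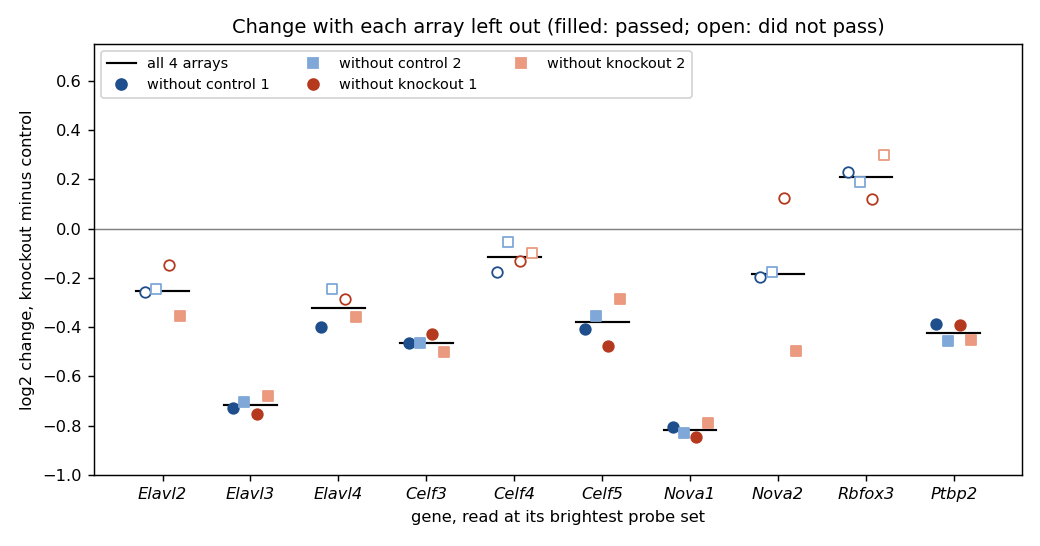
Log2 change of each gene at its brightest probe set with all 4 arrays (black bar) and with each array left out (points; filled where the adjusted p was under 0.05). Elavl3, Nova1, Ptbp2, Celf3 and Celf5 keep filled points below 0 throughout, Elavl2 and Elavl4 lose some, and Nova2 spans -0.50 to 0.12.

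With each array left out in turn, 8 of the 12 probe sets that fell passed every time, namely all 3 of Elavl3, the bright one of Nova1, both of Ptbp2, and those of Celf3 and Celf5. In each such fit 1 group has a single array, whose spread is assumed to equal that of the other group. The points in the plot of left-out arrays stay on 1 side of 0 for all genes but Nova2.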

How the data were processed

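For 4 one-colour Affymetrix arrays the deposited values are linear intensities, 1 per probe set, which the authors made with MAS5 (5.0), per the submitters' processing notes. Biotin-labelled RNA was hybridised, per the labels' protocols. The trimmed mean of every array was 1000 (2% off either end), so a shift shared by most transcripts would have been removed before deposit. No genome build is named for the files. Symbols came from the platform annotation, in which 34945 of 45037 non-control probe sets had 1 symbol, 932 several and 9160 none, and 64 array controls were left out.

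Intensities were taken as log2(signal + 16) without further normalization. Probe sets with a mean log2 value above the 40th percentile (signal 154.6) were kept, 27022 in all. Knockout and control were compared in limma 3.58.1 (R 4.3.3, lmFit, eBayes with variance trend, Benjamini-Hochberg, threshold 0.05), with 2 residual and 8.33 prior degrees of freedom. The steps were tested on simulated data. There, 2.04% of changes of 1.25-fold were recovered, 26% of 1.5-fold, 65.2% of 2-fold and 97.8% of 3-fold. Far fewer probe sets were changed there than were called in the data, which makes the adjusted threshold stricter. They were drawn at any signal above the filter. These shares are therefore not the recovery to be had in the real fit or at bright probe sets, though small changes can be missed. Each gene was read at its brightest tested probe set, and lists are described by counts and medians, with no set test. The rule for names took all 10 genes, the 8 relatives and up to 4 called genes of each list by size of change. Named outside that rule were the targeted Sox4 and Sox11, and Pcbp4, Fxr1, Cldn5, Gap43, Dlg4, Fabp7 and Trem2. Upstream windows came from RefSeq and were matched by symbol. Alternatives were the normalization, pseudocount, filter, variance model, threshold, arrays left out, replicate block and mean over a gene's probe sets. The genes, lists and tests were chosen with earlier results of these data known. The number of arrays limits the precision.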

Additional observations from a re-analysis of the deposited data

How the results depend on the processing

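Of the 12 probe sets that fell, 5 kept the call under every alternative run, the 3 of Elavl3, 1426938_at of Nova1 and 1423471_at of Ptbp2, and none of the 12 changed sign. Without a variance trend 5 probe sets and 2 genes of the set fell, and 3114 probe sets were called in all, against 6277. With single arrays left out the set's count of falls was 8 to 12 probe sets and 5 to 8 genes, and 3132 to 5422 probe sets were called in all, the fewest without knockout 1 and next without knockout 2 (3518). Median centring and no signal filter left 9 falls each, quantile normalization 14. With the mean over a gene's tested probe sets, 6 genes of the set fell and 0 rose. No probe set of the set rose under any alternative. Signs of changes that did not pass turned at Celf4 1452240_at (0.0337 with median centring, -0.0804 to 0.0650 with single arrays left out), Celf4 1426929_at (0.0192 with median centring, -0.132 to 0.0878 with single arrays left out), Nova2 1439192_at (-0.495 to 0.124) and Rbfox3 1427286_at (-0.0192 to 0.0463). The replicate block, which pairs arrays by number, gave 12 falls and 6844 calls in all, with 1 residual degree of freedom. The labels give the numbers no shared source and deviations of same-numbered arrays correlated at 0.003, so the arrays were not treated as pairs. The cause of these differences was not tested.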
